A study of Equus caballus with 4 samples.

Results

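The HSP70, HSP110, HSP90, chaperonin and DNAJ genes on a horse array were followed in equine satellite cells, the stem cells of muscle, after exposure to gamma-oryzanol (GO), a mixture of ferulic acid esters from rice bran oil. The members were all genes whose symbol in the array files began with HSPA, HSPH, HSP90, HSPD, HSPE or DNAJ, except the endoplasmic reticulum (ER) stress genes *hspa5*, *hsp90b1*, *dnajb9* and *dnajc3*. This rule gave 49 genes with 97 probes, of 15085 genes with a name on the array. Satellite cells were isolated from the semitendinosus muscle of 6 healthy colts aged 6 months, and per the methods the line that scored best for viability and fusion was then taken further. The cells were in differentiation medium when 125 nM GO was added for 24 h, so that they were collected on day 3 of differentiation. Control cells received the vehicle alone, 0.04 μl/ml DMSO, which the GO-treated cells also received. RNA of GO-treated cells (Cy5) and of control cells (Cy3) was hybridized together on each of 4 arrays. The labels call the 4 arrays biological replicates. With a line selected, they may not stand for 4 horses, and the p-values below then measure only the spread between these samples. GO-treated cells carried Cy5 on every array, so that the effect of the dye and the effect of GO cannot be told apart. All values below are log2 ratios of GO-treated over control, taken from the log10 ratios in the files, and a negative value means a lower signal in GO-treated cells.

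HSP70 proteins bind unfolded stretches of other proteins in a cycle driven by ATP. DNAJ proteins (HSP40) bring clients to HSP70 and start ATP hydrolysis, HSP110 proteins exchange the spent nucleotide, and HSP90 takes over later folding steps of kinases, steroid receptors and, in muscle, of myosin. The heat shock factor HSF1 raises the transcription of a part of these genes when proteins unfold, whereas other members are made in all cells at all times.

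A gene was called lower or higher when the adjusted p in limma did not exceed 0.05 and the fold change reached 1.3, which is a log2 ratio of 0.38 in size. For each gene the probe with the brightest signal was used. A probe was tested if either the control or the GO channel was marked well above background on each of the 4 arrays. This held for 40 of the 49 members and for 9674 of the 15085 named genes. The other 9 members, *dnajb7*, *dnajb13*, *dnajc5b*, *dnajc6*, *dnajc16*, *dnajc22*, *dnajc27*, *hspa6* and *hspa12b*, were too dim for a test. Control RNA was marked well above background at 63.5 to 68.9% of the spots and GO RNA at 57.4 to 67.0%, and no spot was saturated.

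The probes shown next are 60-base sequences from the array files with positions on EquCab1. Each holds an open frame through its length and belongs to an HSP90 or HSP110 gene on which the results turn. They are examples, since the *hsph1* probe and the brighter *hsp90ab1* probes also hold open frames and are not printed. The *hsp90aa1* probe covers 338 bases of chr24:43295683-43296020 on the minus strand, so that it crosses an intron and reads spliced mRNA. The last *hsp90ab1* probe does the same over 341 bases of chr20:36563044-36563384 on the plus strand. The *hspa4l* probes lie side by side at chr2:86550781-86550840 and chr2:86550721-86550780 on the minus strand, and capitals mark the stop codon that ends the open frame.
*hsp90aa1*: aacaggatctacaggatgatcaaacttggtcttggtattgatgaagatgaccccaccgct
*hsp90ab1* (faintest of 6 probes): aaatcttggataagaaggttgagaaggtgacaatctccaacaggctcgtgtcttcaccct
*hspa4l* (brighter probe): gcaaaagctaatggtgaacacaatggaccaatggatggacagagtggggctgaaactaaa
*hspa4l* (second probe): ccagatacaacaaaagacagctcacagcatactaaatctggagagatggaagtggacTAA
Probes of different member genes shared no run of 12 or more bases. Probes were compared only with each other and not with transcripts, so whether they tell related genes apart was not tested.

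In GO-treated cells 5 of the 40 tested members were lower past both thresholds and 0 were higher. The 5 genes were *hsph1* and *hspa4l* of the HSP110 group, *hsp90aa1*, *hspa8* and *dnajc12*. Of all tested genes 8.80% passed both thresholds, 5.46% as lower and 3.34% as higher, beside 12.5% of the members as lower. Thus 4 of the 12 tested HSP members fell, against 1 of the 28 tested DNAJ members. The call of *hspa8* was lost without array 1 or without array 3 and that of *hspa4l* without array 2 or without array 3, whereas the other 3 calls held without any 1 array. A plain one-sample test of the same ratios left 0 of these calls, and a fit of the channels as unpaired samples left *hsp90aa1* alone. At an unadjusted p under 0.05, 11 members were lower, where 17.5% of all tested genes were, and 7 higher, where 17.3% were. These shares are the background for the counts at an unadjusted p given below. With the adjusted p alone 6 members were lower, where 9.47% of all tested genes were, and 1 was higher, where 7.93% were. On all 4 arrays alike 16 members were lower and 9 higher, and the shares over all tested genes were 21.0% and 21.2%. The median log2 ratio of the tested members was -0.05 (range -0.58 to 0.39), and that of all tested genes was 0.00. For the HSP members the median was -0.12 and for the DNAJ members 0.01.

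**Figure D1:**
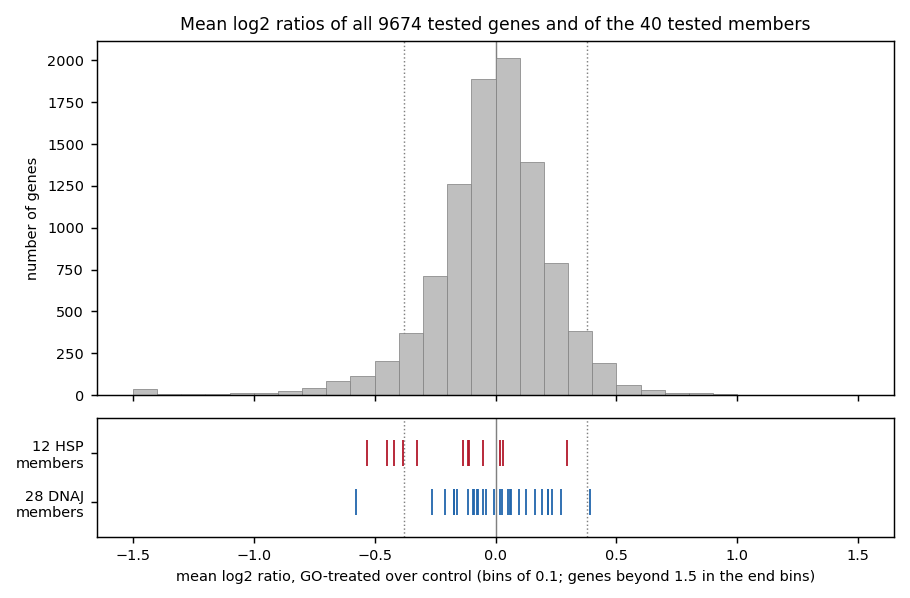
Number of genes in bins of 0.1 by mean log2 ratio of GO-treated over control (top), with each tested HSP and DNAJ member as a tick (bottom). Solid lines mark 0 and dotted lines the 1.3-fold threshold. The lowest 4 HSP members and 1 DNAJ member lie beyond the lower threshold, and the rightmost tick, *dnajb2* at 0.39, did not pass the adjusted p.

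*Hsph1*, which encodes HSP110, an exchange factor of HSP70 that also keeps unfolded proteins in solution, had the lowest adjusted p of the members. Its log2 ratios were -0.61, -0.46, -0.65 and -0.39 on arrays 1 to 4. Every array was past the fold threshold, and the mean was -0.53 ± 0.12 (SD, n = 4), a 1.44-fold lower level with an adjusted p of 0.0061 in limma. Its relative *hspa4l*, an HSP110 protein best known from testis, had log2 ratios of -0.27, -0.41, -0.47 and -0.39. The mean of -0.38 ± 0.08 (SD, n = 4) lay just past the fold threshold at 1.31-fold lower, with an adjusted p of 0.011. The second *hspa4l* probe, which ends at the stop codon, gave -0.50, -0.35, -0.42 and -0.45, and its mean of -0.43 (adjusted p = 0.0067) also passed both thresholds. *Hspa4*, the broadly expressed member of the same group, read 0.04, -0.15, -0.35 and 0.01. Its arrays fell on both sides of 0, the mean was -0.11 with a 95% interval of -0.31 to 0.08, and the adjusted p was 0.36.

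*Hsp90aa1* encodes the stress-inducible HSP90 alpha, the isoform that folds myosin in differentiating muscle. Its log2 ratios were -0.35, -0.41, -0.60 and -0.43, all of them lower and 3 of them past the fold threshold. The mean was -0.45 ± 0.11 (SD, n = 4), 1.36-fold lower, with an adjusted p of 0.0082. *Hsp90ab1*, which encodes the constitutive HSP90 beta, gave -0.36, -0.18, -0.50 and -0.27. All 4 arrays were again lower, and the mean of -0.33 ± 0.14 (SD, n = 4) passed the adjusted p (0.027) but, at 1.25-fold, not the fold threshold. The next 4 of its 6 probes, shifted by single bases from the brightest and thus no independent measure, had means between -0.28 and -0.25. The intron-crossing probe printed above read 0.24, -0.08, -0.15 and -0.18, with a mean of -0.04 and an adjusted p of 0.77, so that probes of the gene differed.

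*Hspa8* encodes HSC70, the HSP70 that all cells carry for folding and for autophagy by chaperones. The brightest probe (chr7:26910576-26910635, minus strand) gave -0.56, -0.22, -0.62 and -0.28. Arrays 1 and 3 were about as low as each other, arrays 2 and 4 were nearer to 0, and the mean of -0.42 ± 0.20 (SD, n = 4) was 1.34-fold lower with an adjusted p of 0.023. The other 5 probes of the gene, which overlap each other at chr7:26912605-26912668, had means between -0.27 and -0.20, and 0 of them passed the adjusted p. They were designed on a partial cDNA record, and whether their last bases belong to the transcript was not tested. On array 1, where the brightest probe was at -0.56, the brightest of these 5 was at 0.02. *Hspa1a*, the HSP70 that heat induces most strongly, read -0.02, -0.14, 0.01 and -0.06. On this brightest probe the mean of -0.05 had a 95% interval of -0.19 to 0.08, which lies inside the fold threshold, and an adjusted p of 0.54. The second, fainter *hspa1a* probe scattered more, at 0.10, -0.28, 0.11 and -0.45. Its mean was -0.13 (adjusted p = 0.44), and its 95% interval of -0.39 to 0.13 reached past the lower fold threshold. *Hspa1l*, another cytosolic HSP70 gene known from testis, was higher on all arrays, at 0.10, 0.53, 0.20 and 0.35, but its mean of 0.29 missed both thresholds (adjusted p = 0.054). The *hspa1l* probe was dim, at rank 9103 of 9674 in brightness, and its GO channel was well above background on 3 arrays. Its mean was 0.11 with normexp and loess and 0.16 without the lowess step. The mitochondrial *hspa9* (mortalin), which pulls proteins through the inner membrane, had a mean of -0.13 and an adjusted p of 0.18. *Hspa14*, which works at the ribosome, and *hspa13*, an HSP70 without a client-binding domain in the ER, had means of 0.02 and 0.03.

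Within these families 4 pairs were compared array by array with an exact two-sided sign-flip test, for which 4 arrays allow no p below 0.13, so that it could not pass a threshold of 0.05 and is given with the values only. *Hsph1* was lower than *hspa4* by 0.65, 0.32, 0.30 and 0.40 on the log2 scale, and the p was 0.13 (adjusted over 4 pairs, 0.17), as it was for *hspa4l* with *hspa4* and *hspa8* with *hspa1a*. *Hsp90aa1* minus *hsp90ab1* was 0.01, -0.23, -0.10 and -0.16 with an exact p of 0.25.

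**Figure D2:**
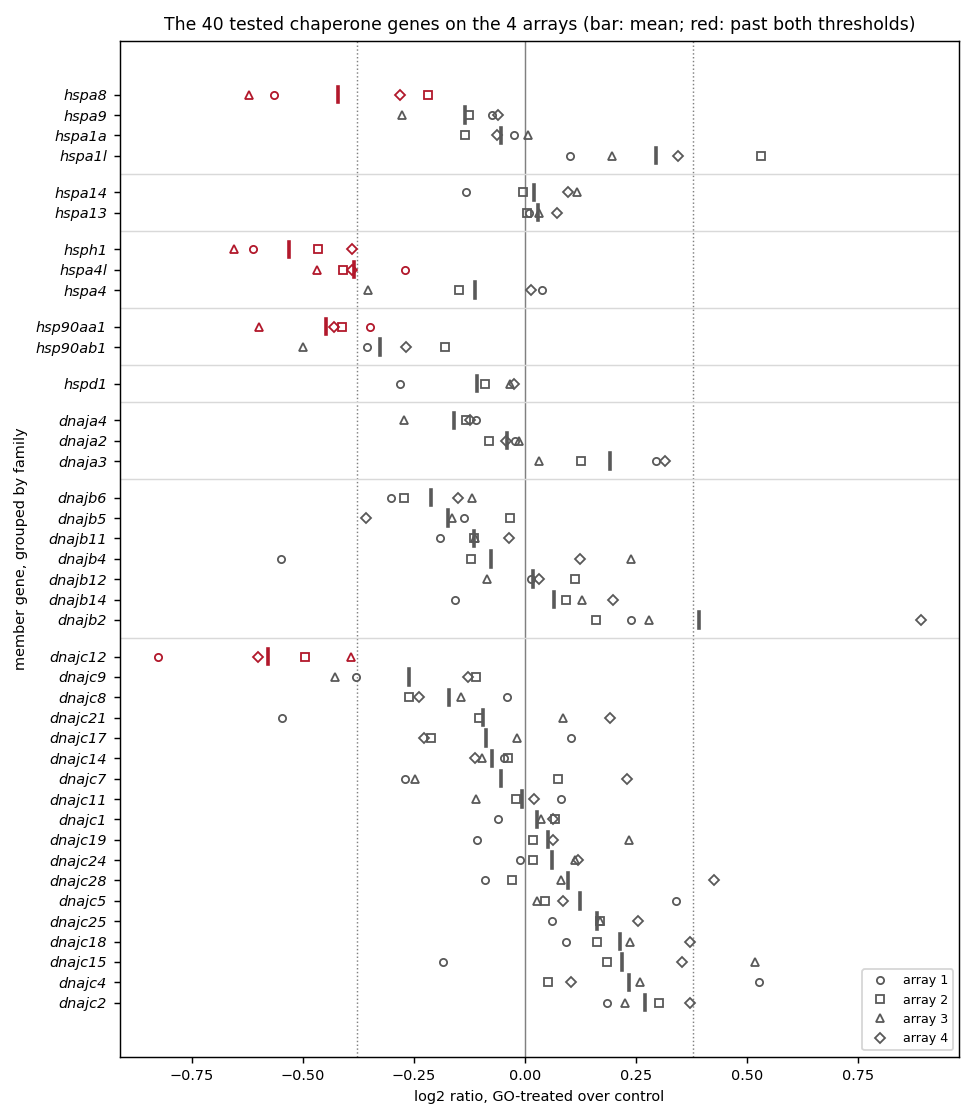
Log2 ratio of GO-treated over control for the 40 tested members on each of the 4 arrays (symbols) with the mean (bar), by family from HSP70 at the top to DNAJC at the bottom. Dotted lines mark the 1.3-fold threshold, and red marks the 5 genes past both thresholds. The arrays of these 5 lie wholly below 0, and *dnajb2* lies above 0 on every array, with array 4 at 0.89.

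The chaperonin HSPD1 (HSP60) folds proteins inside mitochondria. *Hspd1* gave -0.28, -0.09, -0.03 and -0.02, with a mean of -0.11 (adjusted p = 0.29), and its second probe had a mean of 0.03. The 6 tested mitochondrial members, which also include *dnaja3*, *dnajc11*, *dnajc15* and *dnajc19*, had 0 genes past both thresholds in limma, 1 (higher) at an unadjusted p under 0.05 against 17.3% of all tested genes, and a median of 0.02. *Dnajc15* and *dnajc19*, relatives that start the HSP70 cycle at the import channel, had means of 0.22 (adjusted p = 0.22) and 0.05 (adjusted p = 0.64). *Dnaja3*, also mitochondrial, was above 0 on all arrays, at 0.29, 0.13, 0.03 and 0.32, with an adjusted p of 0.10. The 7 tested members of the ER likewise had 0 genes past both thresholds, with 2 (higher) at an unadjusted p under 0.05 against the same 17.3%, and a median of 0.03. Among them *dnajb11*, a partner of BiP, was at -0.11, and *dnajc18* was at 0.22 with an adjusted p of 0.069.

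Among the DNAJ genes only *dnajc12* passed both thresholds. This small cochaperone of HSP70 is known for its work on the aromatic amino acid hydroxylases. Its log2 ratios were -0.83, -0.50, -0.39 and -0.60, the largest mean fall of the 40 members at -0.58 ± 0.19 (SD, n = 4), 1.49-fold lower with an adjusted p of 0.0079. Its second probe scattered more, at -1.06, 0.08, -0.59 and -0.07, and did not pass (mean -0.41, adjusted p = 0.16). *Dnajc2* encodes MPP11, which works with HSPA14 on new chains at the ribosome. It was the only member higher by the adjusted p (0.029), with 0.18, 0.30, 0.23 and 0.37 and a mean of 0.27, and at 1.21-fold it missed the fold threshold. Its adjusted p in limma was 0.020 with normexp and loess and 0.019 without the lowess step. It was 0.060 with no filter on dim probes and up to 0.12 without 1 array, and 0.090 in the plain one-sample test.

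DNAJ members with roles in the nucleus, at the ribosome or in the ER membrane were also followed, and 0 of those named next passed the adjusted p. *Dnajc9*, a histone chaperone of dividing cells, was lower on all arrays, at -0.38, -0.11, -0.43 and -0.13, with arrays 1 and 3 apart from arrays 2 and 4. Its mean was -0.26 and its adjusted p 0.061, and the other probes of the gene gave means of -0.25 and -0.23. *Dnajc8*, a gene of the spliceosome, was likewise lower on all arrays, at -0.04, -0.26, -0.14 and -0.24 (mean -0.17, adjusted p = 0.11). *Dnajc17*, also tied to splicing, had a mean of -0.09 with array 1 above 0. *Dnajc21*, which acts in the making of the large ribosomal subunit, read -0.55, -0.10, 0.09 and 0.19 and thus had no common direction. *Dnajc24*, which serves the synthesis of diphthamide on an elongation factor, stayed near 0, at -0.01, 0.02, 0.11 and 0.12. In the ER membrane *dnajb12* and *dnajb14*, which assist the removal of misfolded proteins, had means of 0.02 and 0.07, and 95% intervals of -0.12 to 0.16 and -0.11 to 0.24. *Dnajc25*, also counted with the ER, was above 0 on all arrays with a mean of 0.16 (adjusted p = 0.10).

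The DNAJA and DNAJB genes had 0 of 10 tested members past both thresholds in limma, with 3 lower and 2 higher at an unadjusted p under 0.05, beside 17.5% and 17.3% of all tested genes. *Dnajb2*, a ubiquitin-binding DNAJ gene of neurons and muscle, had the largest mean rise of the members, 0.39 ± 0.34 (SD, n = 4). Array 4 stood at 0.89 against 0.16 to 0.28 on the other arrays, and the adjusted p was 0.075. Without array 4 its mean was 0.23. The *dnajb2* probe was dim, at rank 8384 of 9674 in brightness. Its mean was 0.13 with normexp and loess and 0.24 without the lowess step. *Dnajb6*, which protects muscle Z-discs and is mutated in a limb-girdle dystrophy, read -0.30, -0.27, -0.12 and -0.15 (mean -0.21, adjusted p = 0.058). Its second probe had a mean of 0.02, with arrays on both sides of 0. *Dnajb5*, a close relative of DNAJB1 and DNAJB4, was lower on all arrays with a mean of -0.17 and an adjusted p of 0.13. The heat-inducible *dnajb4* scattered most of this group, at -0.55, -0.12, 0.24 and 0.12. Of the DNAJA genes, which farnesyl groups can tether to membranes, *dnaja2* had a mean of -0.04 and *dnaja4* of -0.16 (adjusted p = 0.11). *Dnajc5*, the cysteine string protein of vesicles, was at 0.12 and *dnajc7*, which binds HSP70 and HSP90 together, at -0.05. *Dnajc4* was above 0 on all arrays, with a mean of 0.23 and an adjusted p of 0.11.

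The heat-inducible members, a list drawn from textbook knowledge with earlier results of these data known, held 7 tested genes. Their means were all below 0, where 49.35% of all tested genes had such a mean, and the median was -0.38. Past both thresholds as lower were 4 (*hsph1*, *hspa4l*, *hsp90aa1* and *hspa8*), beside 5.46% of all tested genes. The list counts *hspa8* as heat-inducible, although it is described above as the HSP70 that all cells carry. As the list was drawn with results known, these counts are no test of heat-inducible genes as a group. The other 3 were *hspa1a*, *hspd1* and *dnajb4*. With normexp and loess the median was -0.25 with 2 of the 7 called lower, and without the lowess step it was -0.06 with 2 called lower and 5 means below 0. Some chaperones carried no symbol in the files and are named here from the probe descriptions alone, outside the 49 members. *Dnajb1*, the main heat-inducible DNAJ gene, read 0.25, 0.06, 0.05 and 0.04 and *dnaja1* had a mean of 0.06, and neither passed the adjusted p (0.30 and 0.51). A gene described as like *hspa2*, the HSP70 of testis and muscle, gave -0.71, -0.26, -0.43 and -0.42, with a mean of -0.45 and an adjusted p of 0.016, past both thresholds. Without array 1 (mean -0.37) or without array 3 (adjusted p = 0.058) it did not pass.

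**Figure D3:**
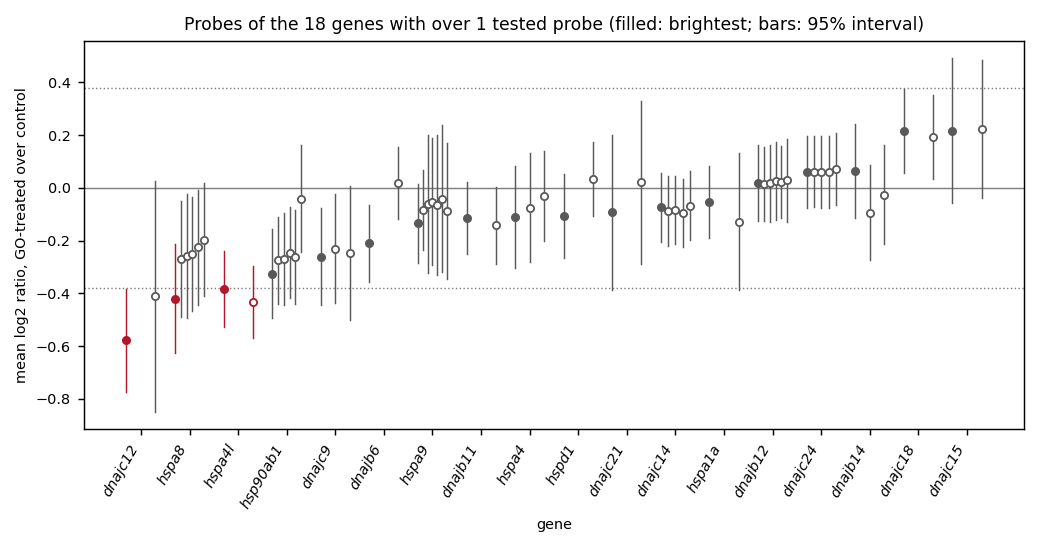
Mean log2 ratio with its 95% interval for each probe of the 18 members with over 1 tested probe, ordered by the brightest probe (filled). Red marks probes past both thresholds. Both *hspa4l* probes passed, 1 of 6 *hspa8* probes did, and the faintest *hsp90ab1* probe lay at -0.04, apart from the other 5.

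In all, 84 of the 97 member probes were tested, and 6 of them were lower past both thresholds and 0 higher. For *dnajb12* (6 probes), *dnajc14* (5) and *dnajc24* (5), whose probes largely repeat each other, the lowest and highest mean differed by at most 0.03. The widest spread within a gene was that of *hsp90ab1* (0.29), followed by *dnajb6* (0.23) and *hspa8* (0.22).

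The scaling of the arrays mattered for the brightest members. The deposited ratios carry a lowess dye correction that depends on brightness. The setting without the lowess step started from background-subtracted signals, so that it left out the detrending too. In this setting, with each array centred on its median, *hspa8* turned to 0.04 (-0.21, 0.12, -0.09 and 0.33). *Hsp90ab1* turned to 0.32 (0.21, 0.36, 0.24 and 0.46) with an adjusted p of 0.024 in limma. Both thus went from a lower to a higher mean. These genes ranked 166 and 115 in brightness among the 9674 tested genes. For the 967 brightest tested genes the median log2 ratio moved from -0.02 to 0.16 by this change, and for all genes from 0.00 to -0.02. *Hsph1* read -0.51, *hspa4l* -0.45 and *dnajc12* -0.65 without the lowess step and were past both thresholds, whereas *hsp90aa1* at -0.34 (adjusted p = 0.015) was below the fold threshold. These 3 were the only members called lower, beside 7.25% of all tested genes, and 0 members were called higher, beside 3.93%. The median of the 12 HSP members was then 0.00, with 6 of their means below 0. The sign of the mean changed for 5 of these 12, among them *hspd1* (from -0.11 to 0.10) and *hspa4* (from -0.11 to 0.02).

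With normexp background correction and a new loess fit, *hsp90aa1* at -0.49 and *hsph1* at -0.50 were past both thresholds, and they were the only members called, beside 2.84% of all tested genes as lower and 1.31% as higher. *Hspa8* (-0.32), *dnajc12* (-0.34) and *hspa4l* (-0.25) passed the adjusted p there but not the fold threshold, and *hsp90ab1* was at -0.06. *Hsph1* was thus the only member past both thresholds under all 3 scalings.

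**Figure D4:**
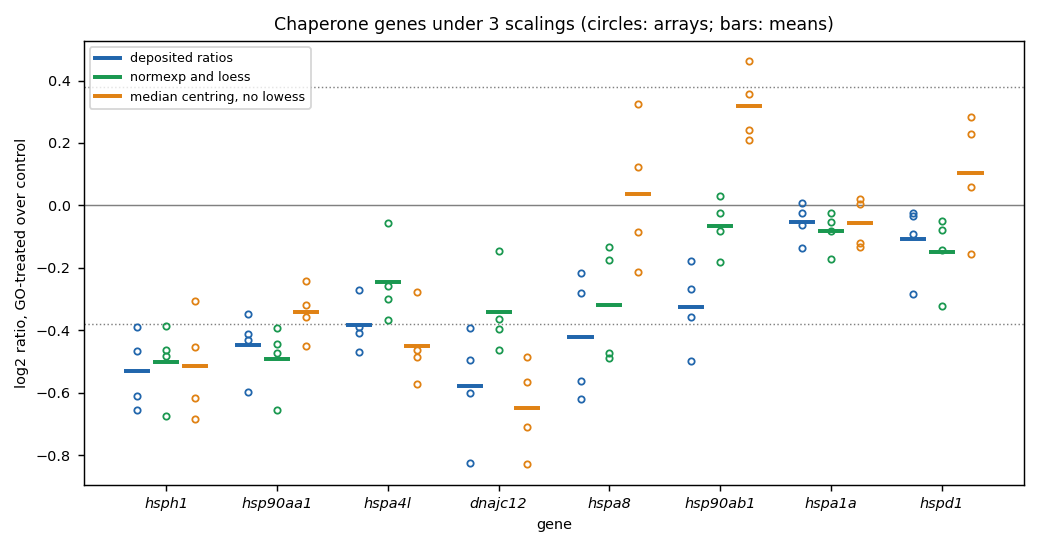
Log2 ratio of GO-treated over control for 8 members under 3 scalings, with the 4 arrays as circles and the mean as a bar. Dotted lines mark the 1.3-fold threshold. *Hsph1* lies near -0.5 under each scaling, and the means of *hspa8*, *hsp90ab1* and *hspd1* move from below to above 0 without the lowess step.

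The partners of these chaperones were followed as lists, also chosen with earlier results of these data known. Of 78 genes listed, 68 were tested, 5 (7.35%) were lower past both thresholds, near the 5.46% of all tested genes, and 0 were higher. The median was -0.11, against 0.00 for all tested genes. Of the 5, 3 were small heat shock proteins, ATP-independent chaperones that hold unfolded proteins and that muscle carries in large amounts. *Cryab* (alpha B-crystallin) gave -0.56, -0.61, -0.61 and -0.66, a mean of -0.61 with an adjusted p of 0.0027. *Hspb2* had a mean of -0.71 (adjusted p = 0.0029), and *hspb8*, which works with BAG3 on damaged filaments, of -0.47 (adjusted p = 0.017). Without the lowess step *cryab* was at -0.19 and *hspb2* at -0.26, below the fold threshold, and *hspb8* did not pass without array 2 or without array 3. *Hspb1* was at -0.18 (adjusted p = 0.11) and turned to 0.27 without the lowess step (adjusted p = 0.036). *Hspb6* was at 0.44 with a range from -0.02 to 0.86 and an adjusted p of 0.066.

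Among the 20 tested HSP90 cochaperones 1 was lower, *unc45b*, the muscle-specific myosin chaperone, and 0 were higher. It gave -0.07, -0.54, -0.67 and -1.05, with a mean of -0.58 and an adjusted p of 0.039, and array 4 lay far below array 1. Without any 1 of arrays 2, 3 and 4 its adjusted p was 0.074 to 0.12. *Stip1*, which hands clients from HSP70 to HSP90, was at -0.13, the ATPase activator *ahsa1* at -0.12, *ptges3* (p23) at 0.07 and the receptor cochaperone *fkbp5* at -0.05, with adjusted p from 0.38 to 0.72. *Fkbp8* was above 0 on all arrays, at 0.81, 0.39, 0.14 and 0.23. Its mean of 0.39 passed the fold threshold but not the adjusted p (0.058). Of the 20 means 17 were below 0 and 3 above, where 49.35% of all tested genes had a mean below 0. Among the 13 tested cochaperones and exchange factors of HSP70 1 was lower, the TPR protein gene *ttc1*, with a mean of -0.48 and an adjusted p of 0.0072. *Bag3*, a heat-inducible exchange factor, was at -0.12, the ubiquitin ligase *stub1* (CHIP) at 0.07 and *st13* (HIP) at -0.15, and none of these 3 passed the adjusted p. The chaperonin TRiC, which folds actin and tubulin, and its partner prefoldin had 0 of 14 tested genes past both thresholds in limma. Its *tcp1*, *cct4* and *cct5*, with means of -0.22, -0.25 and -0.27, passed the adjusted p (0.044, 0.044 and 0.040) but not the fold threshold. In this list 5 were lower at an unadjusted p under 0.05, beside 17.5% of all tested genes. Of its means 12 were below 0, where 49.35% of all tested genes had such a mean, and without the lowess step this number was 6.

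*Hsf1*, named from the probe descriptions, read 0.30, 0.08, 0.01 and -0.15 on its brightest probe (mean 0.06, adjusted p = 0.64) and had a mean of 0.24 on the other (adjusted p = 0.041), short of the fold threshold. *Hsf2* was lower on all arrays, with a mean of -0.31 and an adjusted p of 0.019, also short of it. The 10 tested ER chaperones outside the rule had 0 genes past both thresholds in limma, 3 lower at an unadjusted p under 0.05 (17.5% over all tested genes) and a median of 0.00. Of the genes left out by the rule, *dnajb9* was at -0.07, *dnajc3* at 0.12 and *hspa5* (BiP), named from its description, at -0.22 (adjusted p = 0.070), with a second probe at -0.32 (adjusted p = 0.027). Without the lowess step the brightest *hspa5* probe turned to 0.11 (adjusted p = 0.37).

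**Figure D5:**
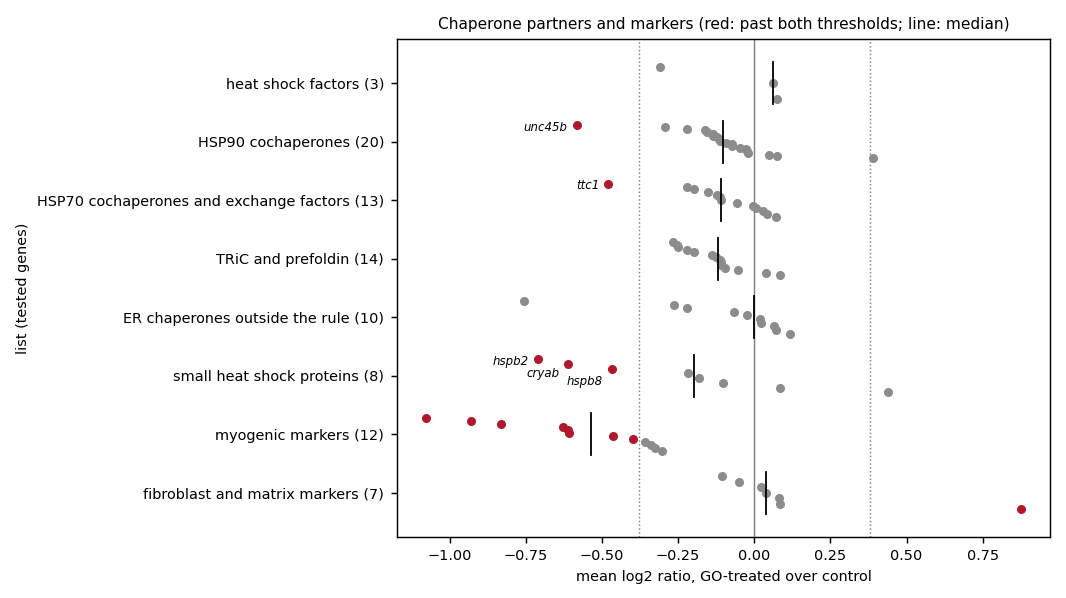
Mean log2 ratio of GO-treated over control for each tested gene of 6 chaperone partner lists and 2 marker lists, with the list median as a line and dotted lines at the 1.3-fold threshold. Red marks genes past both thresholds. The 5 labelled partners, the unlabelled *pdia3* (not past the adjusted p) and 8 of the 12 myogenic markers lie beyond the lower threshold.

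The cell type markers were read beside these results. All 12 myogenic markers on the array were above background and had means below 0, with a median of -0.54, and 8 of them were lower past both thresholds, from *myh8* (-1.08) and *myf5* (-0.93) to *myog* (-0.40). Without the lowess step 5 of the 12 were called lower and 1, *actc1*, turned from -0.33 to 0.66 and was called higher. Of 7 fibroblast and matrix markers 1 was higher, *pdgfra* (0.87, range 0.48 to 1.54), and the others lay between -0.10 and 0.08. The *pdgfra* probe was dim, with a mean log2 signal of 4.87 in control and 5.75 in GO-treated cells. The 5 endothelial and 4 adipocyte markers were not well above background on any array, nor were 5 of the 7 leukocyte markers, among them *cd3e* and *cd79a*. The other 2 leukocyte markers, *cd14* and *cd68*, were well above background in both channels on all 4 arrays. Their mean log2 signals in control cells were 12.1 and 5.85. Their log2 ratios were 0.11 and -0.28, and neither passed the adjusted p in limma (0.25 and 0.060). Fewer cells of a type and less RNA per cell cannot be told apart in these bulk samples. The part of the lower myogenic markers in the lower chaperone values was not tested.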

How the data were processed

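The data were 4 two-color Agilent horse arrays on 1 slide, each with GO-treated (Cy5) and control (Cy3) RNA. The authors scanned them with Feature Extraction (version 10.10.1.1 per the file headers; the methods name an earlier release). The deposited intensity values are raw, background-subtracted and processed signals, the last after detrending and linear-lowess dye correction. The deposited log10 ratios are those of processed Cy5 over Cy3 signal and were multiplied by log2 of 10. RNA had an integrity number of at least 9.2.

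Control spots were left out, and repeat spots of a probe were averaged, which turned 43803 spots per array into 43603 probes. Outlier spots (10 to 19 per array) were left out of the values. Of the probes 26832 met the filter. Ratios were tested against 0, two-sided, with limma (version 3.58.1, R 4.3.3; prior SD 0.144, 3.60 prior degrees of freedom) and adjusted after Benjamini and Hochberg over these probes. The number of arrays limits the precision, and p-values measure the spread between arrays. With 1 slide no batch could be fitted. Probe positions are those of the files.

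The ratio pairs the channels of an array. After subtraction of the group mean, the channels had correlations of 0.60, 0.86, 0.73 and 0.48 within arrays and -0.54 to 0.24 between arrays. The channels of an array share its spots and hybridization, so these correlations cannot tell whether the cultures themselves were paired.

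The members and lists were chosen with earlier results of these data known. Named were all members past both thresholds, the 5 largest rises and 5 largest falls, a fixed set of family members and partners, and partners past both thresholds. Names came from the files for 24960 probes and through RefSeq (TB-T2T) for 2426 by gene number and 487 by accession. The remaining 15730 probes had no name by these routes, and among them 9 chaperones and *hsf1* were named from descriptions. The test was tried on simulated data. Alternatives were 2 other scalings, 2 other filters, a plain one-sample test, unpaired channels, leaving out each array, and the mean over probes. The threshold on adjusted p alone was added after seeing the data.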

Additional observations from a re-analysis of the deposited data

Results flagged for a closer look

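For 3 genes a log2 ratio stood apart from the other 3 arrays by Dixon's criterion for 4 values, which chance meets in about 1 of 20 groups, over 46 genes named. *Dnajb2* was at 0.89 on array 4, where the other arrays lay between 0.16 and 0.28. *Dnaja4* was at -0.27 on array 3, against -0.13 to -0.11. *Dnajb1* was at 0.25 on array 1, against 0.04 to 0.06.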

How the results depend on the processing

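The count of 5 members past both thresholds, all lower, became 2 with normexp and loess, 3 with median centring without lowess, 3 with no filter on dim probes, 0 with the plain one-sample test and 1 with no replicate block, that is with the channels as separate samples (*hsp90aa1*). Leaving out 1 array gave 3 to 5 lower members. Without array 3 *hspa8* and *hspa4l* were lost, without array 1 *hspa8* and without array 2 *hspa4l*, whereas *hsph1*, *hsp90aa1* and *dnajc12* passed each time. The mean over probes gave 4 and lost *hspa8*, the stricter filter gave 5 and the adjusted p alone 6. The count of higher members was 0 under every alternative run. The 5 partners became 3 with median centring, with no filter and with no replicate block, 1 (*cryab*) with the plain test, and 3 to 5 without 1 array. With the stricter filter they became 6. Of the fits without 1 array *unc45b* passed only that without array 1, and *hspb8* was lost without arrays 2 or 3. The median of the members, -0.05, was -0.004 with median centring and lay between -0.046 and -0.009 without 1 array. *Hspa8* reversed with median centring, to 0.038. No other named member or partner past both thresholds changed sign under these alternatives. Signal over background limits the 9 dim members, for which no change can be stated. The causes of these changes were not tested.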
